A study of Mus musculus with 6 samples.

Results

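Described here are the proteasome genes of mouse liver in normal, precancerous and tumour tissue of both sexes. Chosen by name were 48 of the 34745 gene rows measured, of which 47 are proteasome genes. The proteasome is the barrel-shaped protease complex that degrades ubiquitin-tagged proteins in the cytosol and nucleus. Its 20S core is built of alpha rings (Psma genes), which gate the entrance, and beta rings (Psmb genes), which hold the proteolytic sites. The 19S regulatory particle caps the core: its ATPases (Psmc genes) unfold substrates, and its non-ATPase subunits (Psmd genes) bind and remove ubiquitin. Psme genes encode alternative caps. Psmb8, Psmb9 and Psmb10 encode inducible beta subunits that replace Psmb5, Psmb6 and Psmb7 in the immunoproteasome, which makes peptides for antigen presentation and is known to respond to interferon gamma.

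Genes were taken whose name is Psma to Psmg followed by a number, without a hyphen, and whose level was at least 1 FPKM (fragment counts scaled to gene length and library total) in at least 2 of 6 libraries. The name pattern matched 50 rows and 48 reached that level. They were 7 core alpha genes, 7 core beta genes, 3 immunosubunits, 6 ATPases and 11 non-ATPase subunits of 19S, 4 activators, 1 copy of an activator gene (Psme2b) and 8 genes of inhibitors or assembly factors. The last of the 48, Psmc3ip, shares the name pattern alone. It encodes a recombination factor and was left out of the classes, but counts out of 48 include it. Psma8, an alpha subunit known from testis, stood at 3.62 FPKM (45 counts) in male tumour and between 0.16 and 0.6 FPKM elsewhere. Psmb11, the thymus beta subunit, had no count in any library, which allows at most 0.163 to 0.5 CPM (3 counts, counting error only). Another 4 names with a hyphen, which mark pseudogenes, had at most 2 counts.

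The 6 libraries were messenger RNA of mouse liver, 1 per group, C57BL/6 for the normal liver. Normal liver came from wild-type males of 9 months and females of 15 months; precancerous liver and liver tumour came from Hras12V transgenic males of 9 months and females of 15 months, all without treatment. Hras12V is an activated form of the Ras oncogene; its promoter, whether mice were pooled for a library, and whether a tumour shares its mouse with a precancerous library are not given in the sources used here. Sex and age cannot be told apart. Counts summed to between 5996585 and 7347064 in males and between 15047022 and 18434508 in females. Albumin (Alb), the defining hepatocyte product, lay between 22400 and 54600 FPKM, and Hnf4a, a hepatocyte transcription factor, between 76.4 and 94.3 FPKM. Both are from a list of 8 hepatocyte markers, whose changes are given below with those of other cell types. In bulk tissue, fewer cells of a type and less RNA per cell cannot be told apart.

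Upstream sequences are shown for 6 genes: those that passed the test between tumour and precancerous liver and have a usable window (Psmd10, Psmd14, Psmd8 and Psmd9), and Psmb5 and Psmb6, whose windows hold the core of an antioxidant response element. NRF1 (Nfe2l1) and NRF2 (Nfe2l2) are known to bind such elements in proteasome genes, and NF-Y binds the CCAAT box. The sequences are RefSeq's, build GRCm38.p6, 5′ to 3′ on the gene's strand, from within 250 bases upstream of the start and cut to the longest stretch under no annotated exon. Capitals mark TGACNNNGC, CCAAT, the interferon response core (GAAA, any 2 bases, GAAA) or the GAS element TTCNNNGAA, on either strand.
Psmd10 (chrX:140956729-140956906, minus strand): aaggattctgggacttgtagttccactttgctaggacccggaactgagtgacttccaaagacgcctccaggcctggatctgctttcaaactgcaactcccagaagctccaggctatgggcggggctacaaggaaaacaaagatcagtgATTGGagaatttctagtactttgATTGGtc
Psmd14 (chr2:61711444-61711693, plus strand): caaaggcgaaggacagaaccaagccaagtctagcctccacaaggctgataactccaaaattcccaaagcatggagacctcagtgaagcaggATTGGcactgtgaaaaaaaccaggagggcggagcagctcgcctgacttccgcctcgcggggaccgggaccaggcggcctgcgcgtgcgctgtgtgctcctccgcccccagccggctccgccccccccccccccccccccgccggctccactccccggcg
Psmd8 (chr7:29180702-29180923, minus strand): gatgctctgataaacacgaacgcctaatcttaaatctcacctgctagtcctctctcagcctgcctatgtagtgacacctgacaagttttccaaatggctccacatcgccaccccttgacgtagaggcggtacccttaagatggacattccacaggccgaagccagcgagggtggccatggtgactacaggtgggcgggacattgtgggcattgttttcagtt
Psmd9 (chr5:123227940-123228189, plus strand): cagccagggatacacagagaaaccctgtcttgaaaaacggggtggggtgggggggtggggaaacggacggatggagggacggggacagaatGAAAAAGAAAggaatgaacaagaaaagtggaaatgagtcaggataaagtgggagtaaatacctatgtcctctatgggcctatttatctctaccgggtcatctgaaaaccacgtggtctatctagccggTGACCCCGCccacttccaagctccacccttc
Psmb5 (chr14:54618023-54618245, minus strand): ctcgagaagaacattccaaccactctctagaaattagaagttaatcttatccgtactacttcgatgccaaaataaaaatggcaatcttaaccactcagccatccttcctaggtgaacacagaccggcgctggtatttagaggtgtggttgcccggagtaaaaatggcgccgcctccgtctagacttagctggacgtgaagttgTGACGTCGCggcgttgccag
Psmb6 (chr11:70525107-70525356, plus strand): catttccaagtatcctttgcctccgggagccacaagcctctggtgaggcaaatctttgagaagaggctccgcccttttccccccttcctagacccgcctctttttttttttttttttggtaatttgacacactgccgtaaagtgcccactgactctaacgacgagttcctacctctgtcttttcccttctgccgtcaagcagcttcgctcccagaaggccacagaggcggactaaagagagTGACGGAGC

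RefSeq windows were matched for 41 of the 48 genes, 40 of them in the classes. TGACNNNGC lay within the 250 upstream bases of 5 of the 40, that is 12.5%, against 10.2% of 32851 mouse windows. The 5 were Psmb5, Psmb6, the ATPase gene Psmc6, Psmd12 and Psmd9. CCAAT lay in 13 of 40 (32.5%, against 33.8% of all windows), and in 5 of the 7 core alpha windows: Psma1, Psma2, Psma3, Psma6 and Psma7. The interferon response core was found in 3 of 40 (7.5%, against 2.98%), TTCNNNGAA in 2 of 40 (5%, against 7.02%) and the heat shock element (TTC, 2 bases, GAA, 2 bases, TTC) in 0 of 40 (against 0.466%). The interferon response core lay in the windows of Psmb3, Psmd4 and Psmd9, and of 0 of 3 immunosubunit genes and 0 of 4 activator genes. The 2 matches of TTCNNNGAA were in the windows of Psmb8 and Psmg1. For Psmb8 and Psmb9 the window lies inside the annotated gene and wholly under annotated exons. The bases upstream of the outermost start of these genes were therefore not searched. These matches describe the letters in a short window and say nothing of binding.

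The 31 core and 19S genes summed to 0.297%, 0.258% and 0.292% of all FPKM in male normal, precancerous and tumour liver, and to 0.233%, 0.210% and 0.257% in females. In both sexes the precancerous library had the lowest share. The level of single genes spread widely around that (levels between genes depend on the 1 gene length behind each FPKM). Psmb1, a beta subunit without a proteolytic site, was the highest core gene, with 102.9, 93.8 and 102.1 FPKM in normal, precancerous and tumour liver of males and 69.3, 63.3 and 66.5 FPKM in females. Psma2 was the highest alpha gene, at 73.8, 57.5 and 59.8 FPKM in males and 58.7, 48.2 and 53.5 FPKM in females. Psma3 was the lowest of the core, between 5.31 and 9.81 FPKM. Within 19S the mean level ran from 7.04 FPKM for Psmd11, a lid subunit, to 63.0 FPKM for the ATPase gene Psmc1. Inhibitor and assembly genes were lower, with means from 2.13 FPKM (Psmg3) to 10.1 FPKM (Psmg2, a chaperone of alpha ring assembly).

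**Figure D1:**
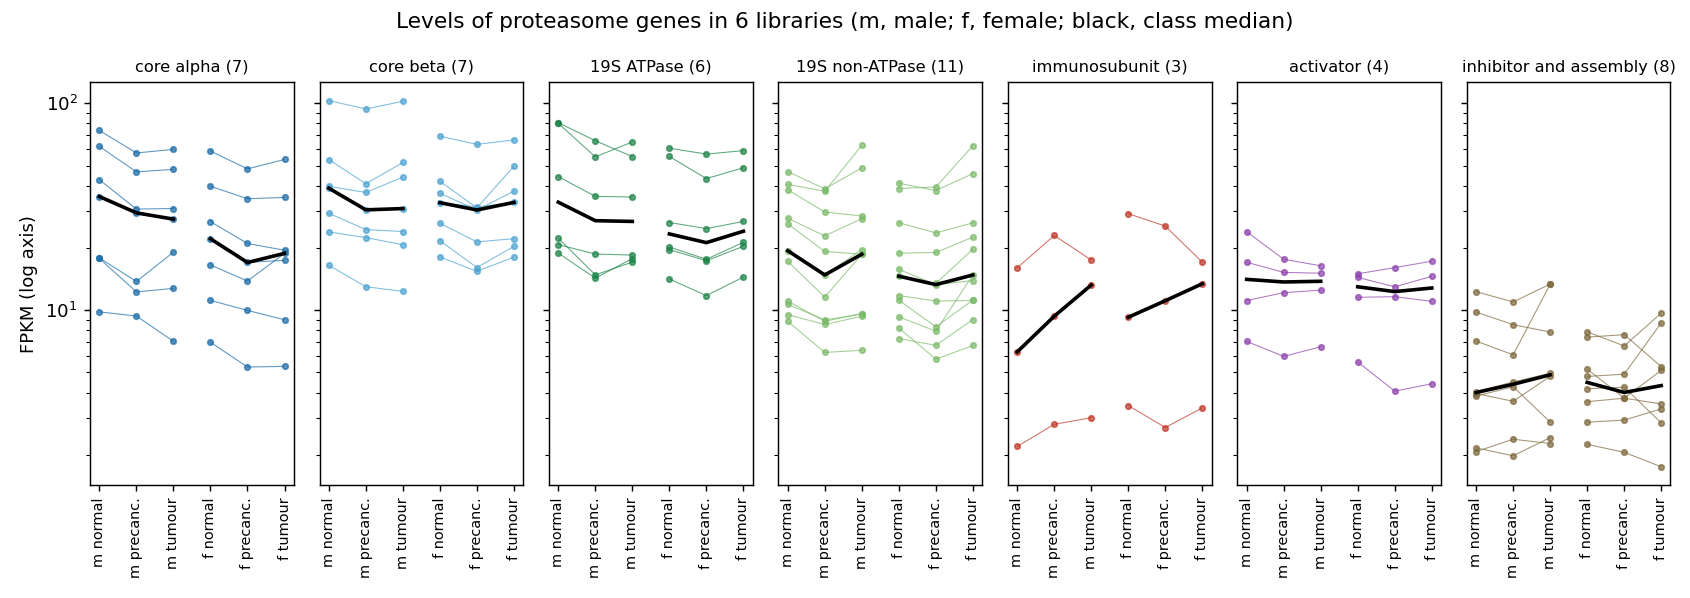
FPKM (log axis) of 46 proteasome genes in 6 libraries, 1 panel per class with the number of genes, males (m) and females (f) each in the order normal, precancerous, tumour. Thin lines join the libraries of 1 gene and the black line is the class median; core genes span 5.31 to 102.9 FPKM, and each is lower in the precancerous than in the normal library of its sex.

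Precancerous liver was compared with normal liver to see how the genes stand in the oncogene's carriers outside the tumour. The core and 19S genes were lower there almost throughout, by a small amount. All 14 core genes were lower in precancerous than in normal liver in both sexes, and so were 15 of 17 genes of 19S; over all 11435 genes tested, 32.8% were lower in both sexes and 31.2% higher in both. The summed FPKM of the core was 18.1% lower in males, going from 563.7 to 461.9, and 16.3% lower in females, going from 429.1 to 359.2. That of 19S was 21.4% lower in males and 10.4% lower in females. No single gene of the 48 passed the test. A gene was called where edgeR's quasi-likelihood test over all 6 libraries, with tissue and sex as terms, gave a Benjamini-Hochberg adjusted p under 0.05 over all genes tested. In this comparison 0.105% of all genes passed upward and 0.149% downward. At an unadjusted p under 0.05 edgeR had 2 of the 48 higher (Psmb8 and Psmc3ip) and 13 lower (all genes: 976 higher and 831 lower). DESeq2 and limma called none.

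The fit put every one of the 31 core and 19S genes lower in precancerous liver, with log2 fold changes from -0.50 to -0.04 and a median of -0.27 (all genes: -0.01). On the scale of log2(FPKM + 1) the core's median difference was -0.33 in males and -0.27 in females, and that of 19S was -0.31 and -0.16. All genes tested had medians of -0.01 and 0.00. An alternative left out core and 19S genes with at least 5% of exonic bases under an exon of the other strand. It also left out those with at least 10% of 50-base windows found in other genes. The mean of the sexes' medians was then -0.28 for the core (8 genes) and -0.27 for 19S (13 genes). This alternative was chosen after seeing the data.

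The lowest of them was Psmd11, which stood at 8.83 and 6.25 FPKM in male normal and precancerous liver and at 8.21 and 5.80 FPKM in females (a log2 change of -0.50, SE 0.12, adjusted p = 0.177, edgeR). Psmc6, an ATPase, had 79.97 against 55.0 FPKM in males and 55.3 against 43.2 FPKM in females (-0.45, SE 0.11). Psmb5, which carries the chymotrypsin-like site, stood at 53.4 and 40.8 FPKM in males and at 41.9 and 31.2 FPKM in females (-0.41, SE 0.13). The exceptions in females were Psmd8 and Psmd12, at 38.7 against 39.4 FPKM and at 18.9 against 19 FPKM in normal against precancerous liver. Outside core and 19S fewer genes were lower in both sexes: 1 of 4 activator genes, and of 8 inhibitor and assembly genes 1 was lower and 1 higher in both. By the sign of the fit, however, 4 of 4 activator genes and 6 of 8 inhibitor and assembly genes were lower, with medians of -0.13 and -0.06.

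**Figure D2:**
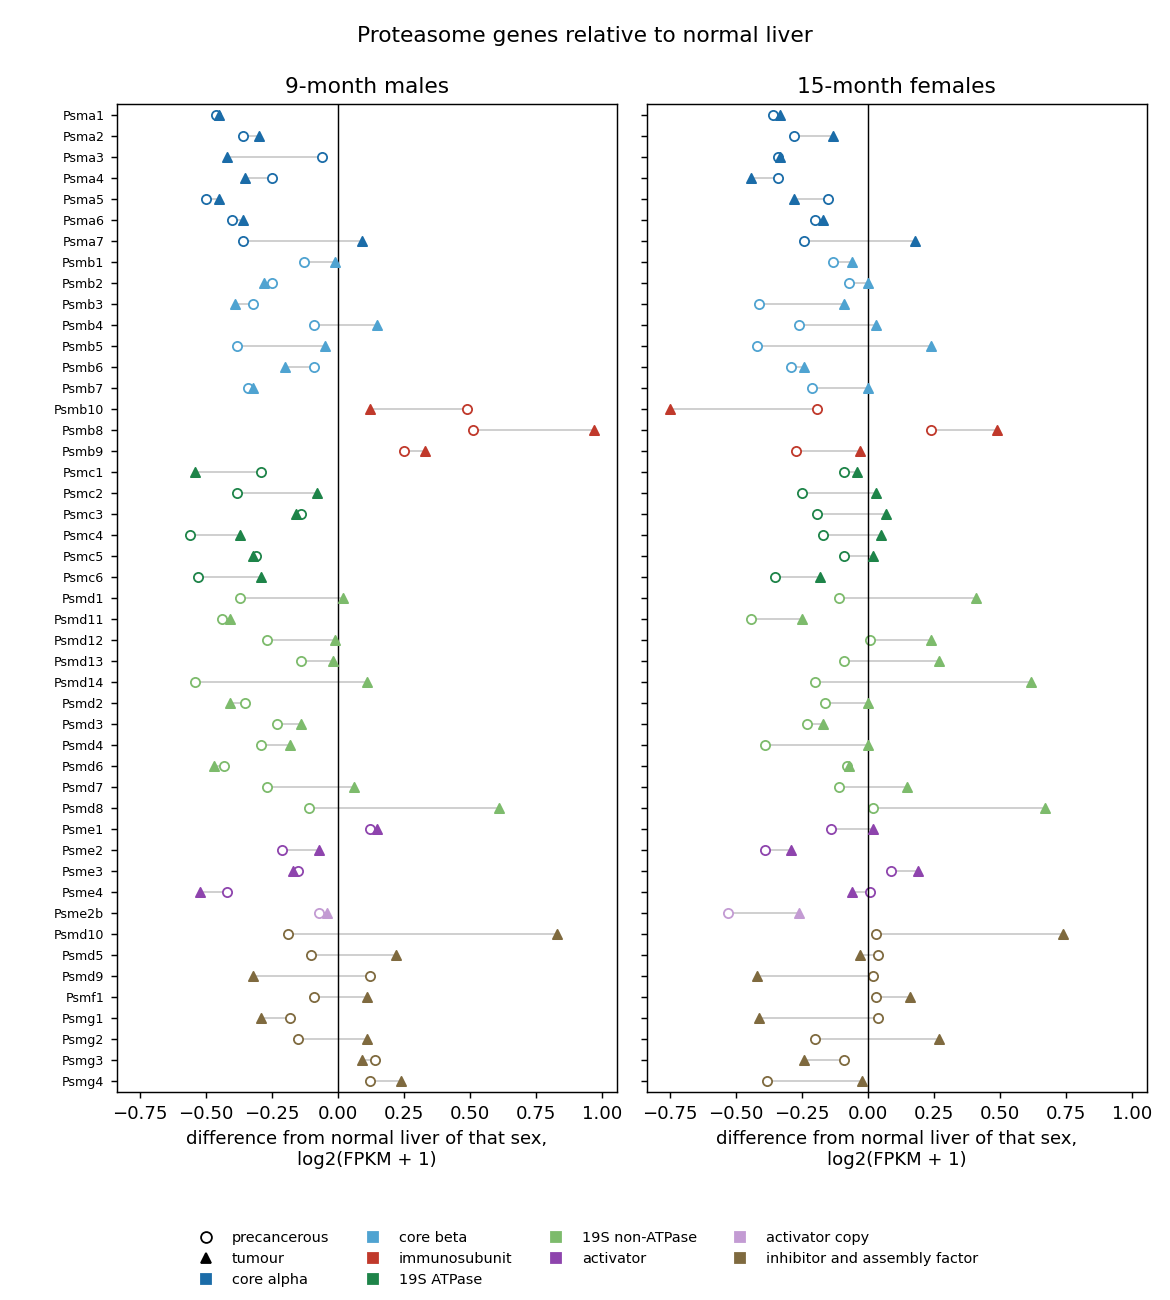
Difference from the normal liver of the same sex, in log2(FPKM + 1), for 47 proteasome genes in precancerous liver (open circles) and tumour (triangles), males left and females right, coloured by class; each point is a pair of libraries without replicates. Circles of core and 19S genes lie left of 0 in males and, but for Psmd8 and Psmd12, in females, while triangles spread from -0.75 (Psmb10, females) to 0.97 (Psmb8, males).

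Tumour was set against the precancerous liver of its own sex. Few proteasome genes changed: the assembly factor gene Psmd10, the 19S genes Psmd14 and Psmd8 and the alpha gene Psma7 rose, and the assembly factor gene Psmd9 fell. That is 4 of 48 higher, or 8.33%, where 13.8% of all genes tested rose, and 1 of 48 lower, or 2.08%, where 12.1% fell. In direction 30 of the 48 were higher in both sexes (all genes: 42.9%) and 6 lower in both (34.5%). In 19S, 12 of 17 were higher in both sexes and none lower in both. The core had 8 of 14 higher and 1 lower. At an unadjusted p under 0.05 edgeR had 2 of 14 core genes (14.3%) and 4 of 17 genes of 19S (23.5%) higher and none lower, beside 21% higher and 19.3% lower of all genes. The median log2 fold change was 0.19 in 19S and 0.03 in the core, beside 0.03 over all genes. This comparison and the one above share both precancerous libraries, so a low value there moves both.

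Psmd10 encodes gankyrin, a chaperone of the 19S base known as an oncoprotein in liver cancer. It had levels of 7.09, 6.09 and 13.4 FPKM in normal, precancerous and tumour liver of males and of 4.78, 4.91 and 8.68 FPKM in females. Both tumours were above all 4 other libraries. Psmd10 rose by 0.94 on the log2 scale against precancerous liver (SE 0.14, adjusted p = 0.0117, edgeR) and by 0.86 against normal liver (SE 0.14, adjusted p = 0.0108). Its counts were low, from 71 to 271 per library. It lies on chromosome X from 140948429 to 140956728 (GRCm38).

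Psmd14 encodes the deubiquitinase that cuts ubiquitin chains from substrates at the 19S lid. Its levels were 17.2, 11.6 and 18.6 FPKM in males and 9.28, 7.92 and 14.8 FPKM in females, in the same order of tissues. The tumour was the highest library in each sex, but male normal liver lay above the female tumour. It rose by 0.77 against precancerous liver (SE 0.16, adjusted p = 0.0259, edgeR) and had a log2 fold change of 0.37 against normal liver (SE 0.16, adjusted p = 0.138). Psmd14 lies on chromosome 2 from 61711694 to 61800376.

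Psmd8, a lid subunit, had close values in the sexes: 40.5, 37.6 and 62.5 FPKM in males and 38.7, 39.4 and 62.3 FPKM in females. Both tumours were far above the other 4 libraries, which spanned only 37.6 to 40.5 FPKM. Psmd8 rose by 0.67 against precancerous liver (SE 0.11, adjusted p = 0.0154, edgeR) and by 0.62 against normal liver (SE 0.11, adjusted p = 0.0138). It is on chromosome 7 from 29174188 to 29180701.

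Psma7, an alpha ring subunit, was at 17.9, 13.8 and 19.1 FPKM in males and at 16.5, 13.8 and 18.8 FPKM in females. The 2 tumours were the highest libraries and the 2 precancerous ones the lowest. It rose by 0.43 (SE 0.11, adjusted p = 0.041, edgeR), though DESeq2 gave an adjusted p of 0.0639, and edgeR with no filter on low values 0.0995. Against normal liver its log2 fold change was 0.11 (SE 0.11, adjusted p = 0.472).

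Psmd9, a chaperone that assembles the ATPase ring, went the other way, with 3.84, 4.27 and 2.88 FPKM in males and 4.17, 4.25 and 2.85 FPKM in females. Both tumours were below every other library. Psmd9 fell by 0.60 on the log2 scale against precancerous liver (SE 0.11, adjusted p = 0.0188, edgeR) and by 0.52 against normal liver (SE 0.11, adjusted p = 0.0222). Of its exonic bases 25.5% lie under the antisense gene Gm26745, which had at most 0.155 FPKM. In the same sequences 24.9% of 50-base windows occur in other genes as well, on either strand. Gm26745 is among those genes, so the shares of bases and of windows are not separate limits. How far they affect the level of Psmd9 was not tested. The 2 assembly chaperones that passed, Psmd10 and Psmd9, thus had opposite signs.

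Other members with the largest differences in their class missed the threshold. Psmb5 was at 51.7 FPKM in male and 49.6 FPKM in female tumour, above both precancerous values given earlier (log2 fold change 0.48, SE 0.13, adjusted p = 0.054, edgeR). For Psmb5, 54.1% of 50-base windows are shared with other genes, a pseudogene among them. Psmc2, an ATPase, stood at 18.9, 14.3 and 17.8 FPKM in males and at 14.1, 11.8 and 14.5 FPKM in females (0.28, SE 0.11, adjusted p = 0.128). Psmg2 was at 12.3, 11.0 and 13.4 FPKM in males and at 7.86, 6.72 and 9.68 FPKM in females (0.39, SE 0.16, adjusted p = 0.135). These 3 were higher in tumour than in precancerous liver in both sexes.

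At the lower end, Psma3 was at 9.81, 9.37 and 7.07 FPKM in males and at 6.999, 5.31 and 5.35 FPKM in females (a log2 change of -0.23, SE 0.15, adjusted p = 0.311, edgeR). Psmb6, with the caspase-like site, was at 23.9, 22.4 and 20.7 FPKM in males and at 26.3, 21.4 and 22.2 FPKM in females (-0.06, SE 0.12). The sexes went opposite ways by little. Psmc1 was at 80.5, 65.9 and 55.2 FPKM in males and at 60.6, 56.8 and 59.0 FPKM in females (-0.12, SE 0.16). Psmd6, a lid subunit, was at 26.2, 19.2 and 18.6 FPKM in males and at 11.8, 11.1 and 11.1 FPKM in females (-0.04, SE 0.14). None of these 4 was called.

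Without the male precancerous library, or without the female one, 0 of the 48 were called; without the female tumour 1 was, Psmd10. The log2 fold changes stayed near their size without the male or the female precancerous library: 0.80 and 1.06 for Psmd10, 0.73 and 0.77 for Psmd14, 0.61 and 0.69 for Psmd8, 0.38 and 0.43 for Psma7, and -0.58 and -0.66 for Psmd9. Each such fit has fewer libraries to set the spread. A fit with no term for sex called 0. With 1 library per group, the 9-month males and 15-month females served as each other's replicates. The fit has 2 residual degrees of freedom, which hold how far the sexes depart from a shared tissue difference. Its p-values measure only that spread between these libraries, which may be in part technical.

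**Figure D3:**
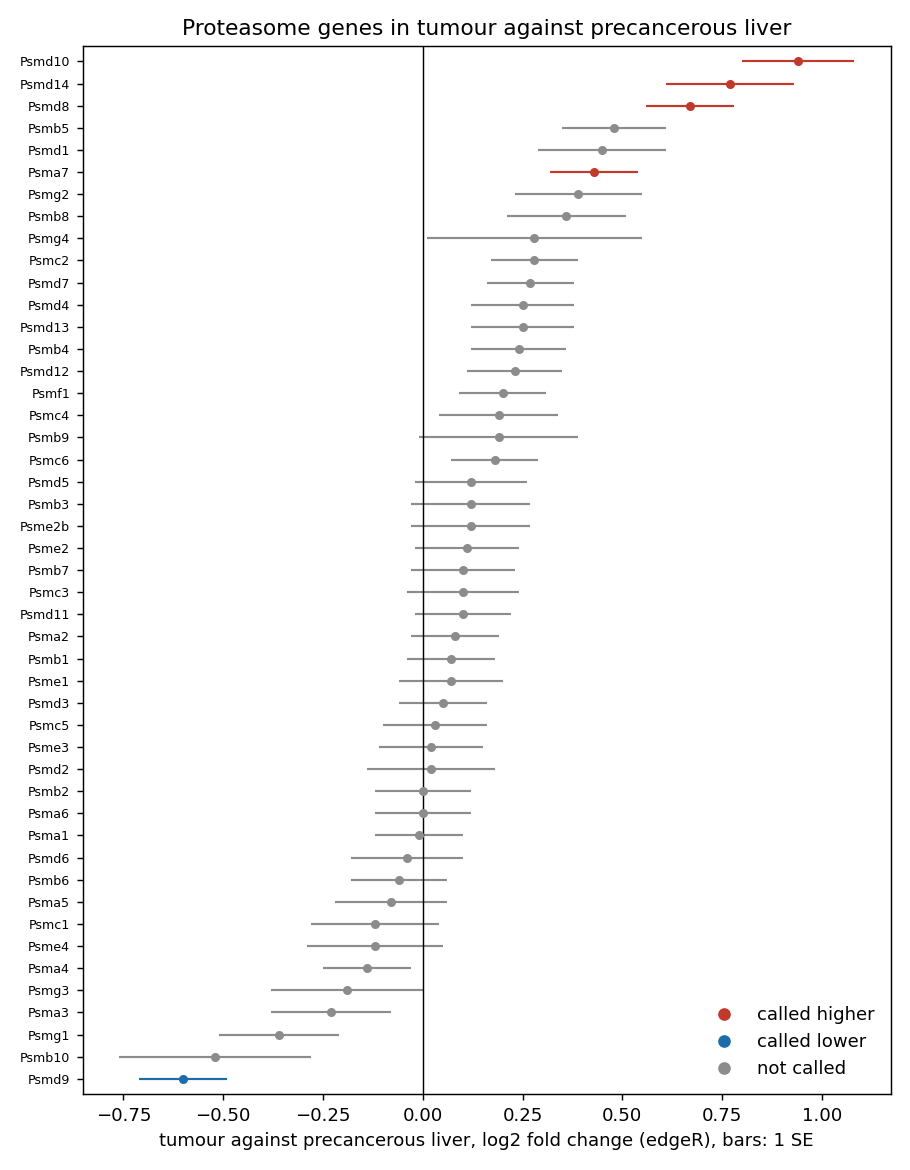
Log2 fold change of tumour against precancerous liver (x axis, edgeR over 6 libraries) for 47 proteasome genes, sorted, with bars of 1 SE; red and blue mark genes called higher and lower. The 4 genes called higher run from 0.43 (Psma7) to 0.94 (Psmd10), and Psmd9 lies at -0.60.

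Tumour was also compared with normal liver, which shares both tumour libraries with the comparison above and both normal libraries with the one before it. Psmd10, Psmd8 and Psmb8 rose (3 of 48, 6.25%, beside 17.3% of all genes), and Psmd9, Psma1 and Psma4 fell (also 3 of 48, beside 16.1%). In direction 12 of the 48 were higher in both sexes (40.8% of all genes) and 21 lower in both (34.8%). The alpha ring stood low in tumour: 6 of 7 genes were lower than normal in both sexes, and its summed FPKM was 20.8% lower in males and 12.9% lower in females. Psma1 was at 42.7, 30.8 and 31.0 FPKM in males and at 22.1, 17.0 and 17.4 FPKM in females, and fell by 0.43 (SE 0.11, adjusted p = 0.0339, edgeR). Psma4 was at 35.4, 29.5 and 27.5 FPKM in males and at 26.8, 21 and 19.5 FPKM in females, and fell by 0.44 (SE 0.11, adjusted p = 0.0365). In Psma1 tumour and precancerous liver were nearly level, and in Psma4 tumour was the lowest library of each sex. The exception, Psma7, was slightly above normal in both. Beta genes lay closer to normal, with a summed FPKM 6.14% lower in males and 0.121% higher in females. Non-ATPase genes of 19S summed to 1.25% and 19.8% more than in normal liver. The count of genes called fell from 6 to between 1 and 3 when any 1 library was left out, and to 0 with no term for sex.

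The immunosubunits stood apart from the constitutive genes in precancerous liver of males. All 3 were higher there than in male normal liver, with a median difference of 0.49 in log2(FPKM + 1), while in females 1 of 3 was higher and the median was -0.19. Whether this difference between the sexes exceeds the replicate error could not be tested with 1 library per group. Psmb8, which takes the place of Psmb5, stood at 6.28, 9.35 and 13.2 FPKM in normal, precancerous and tumour liver of males and at 9.24, 11.1 and 13.4 FPKM in females. It increased in the same order in both sexes, and both tumours were above the other 4 libraries. Psmb8 rose by 0.75 against normal liver (SE 0.15, adjusted p = 0.0186, edgeR), with log2 fold changes of 0.36 in tumour against precancerous liver (SE 0.15, adjusted p = 0.143) and 0.40 in precancerous against normal liver (SE 0.15, adjusted p = 0.31).

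Psmb9, which replaces Psmb6, was low, at 2.20, 2.81 and 3.02 FPKM in males and 3.46, 2.71 and 3.37 FPKM in females; it had 83 to 140 counts in males. Both tumours were slightly above both precancerous libraries, while tumour and normal liver overlapped; the log2 fold change of tumour against normal liver was 0.14 (SE 0.20, adjusted p = 0.646, edgeR). Psmb10, which replaces Psmb7, had the widest range of FPKM of the 3, though not by ratio: 16.0, 23.0 and 17.5 FPKM in males and 29.3, 25.5 and 17.0 FPKM in females. The precancerous library was the highest of the males and the normal library the highest of the females. Its log2 fold change in tumour against precancerous liver was -0.52 (SE 0.24, adjusted p = 0.167), the lowest of the immunosubunits. Thus the 3 genes of the immunoproteasome did not move together: in female tumour Psmb8 was at its highest and Psmb10 at its lowest of the 3 female libraries.

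Each immunosubunit was set against the subunit it replaces. The FPKM ratio of Psmb8 to Psmb5 was 0.118, 0.229 and 0.256 in male normal, precancerous and tumour liver, and 0.220, 0.356 and 0.270 in females. In both sexes normal liver had the lowest ratio. For Psmb9 to Psmb6 it was 0.0919, 0.125 and 0.146 in males and 0.132, 0.127 and 0.152 in females, with the tumour highest in each sex. The ratio of Psmb10 to Psmb7 was 0.413, 0.752 and 0.564 in males and 1.62, 1.65 and 0.945 in females. Here every female library was above every male one. Psmb7 itself was at 38.8, 30.5 and 31.0 FPKM in males and at 18.1, 15.4 and 18.04 FPKM in females. The size of these ratios rests on the gene length behind the FPKM (1 length for all transcripts of a gene), so a ratio compares libraries, not amounts of subunit; with lengths of the principal transcript the mean over 6 libraries went from 0.241 to 0.589 for Psmb8, from 0.129 to 0.154 for Psmb9 and from 0.991 to 0.313 for Psmb10.

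**Figure D4:**
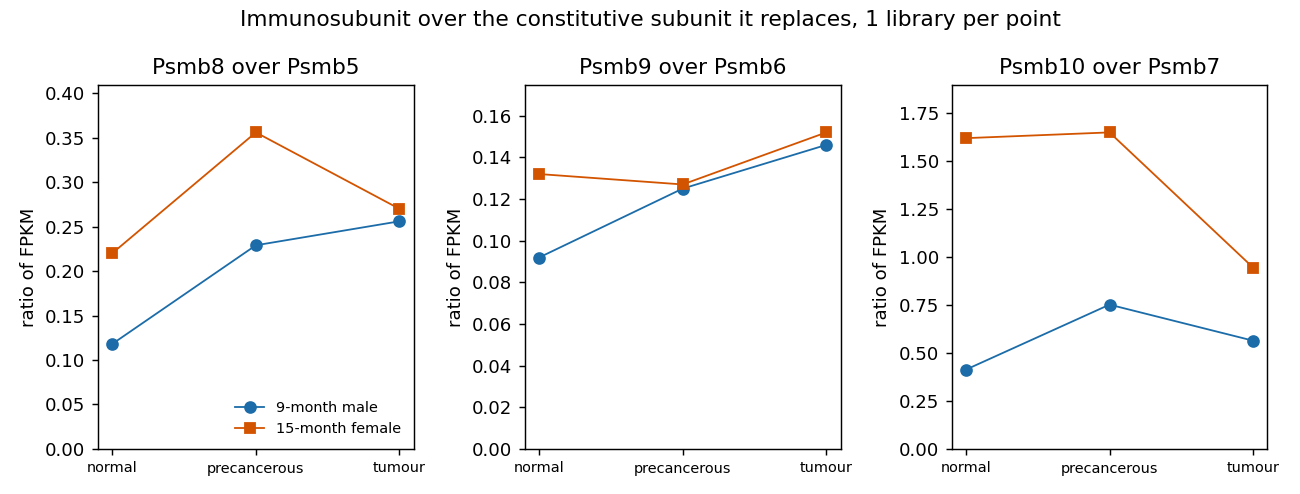
Ratio of FPKM of each immunosubunit gene to the constitutive gene it replaces (y axes start at 0) in normal, precancerous and tumour liver; blue circles are 9-month males and orange squares 15-month females, 1 library per point. The Psmb8 ratio runs from 0.118 to 0.356 with the lowest value of each sex in normal liver, and the Psmb10 ratio is higher in all 3 female libraries.

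Antigen presentation and interferon genes were read beside them from a list of 16, all tested. In tumour against precancerous liver 3 rose and none fell (all genes: 13.8% and 12.1%). Among the 3 were Isg15, an interferon-induced ubiquitin-like protein (0.89, adjusted p = 0.0131, edgeR), and Tap1, a subunit of the peptide transporter (0.86, adjusted p = 0.0077). Against normal liver 7 rose and none fell (all genes: 17.3% and 16.1%), with a median of 0.50. Tap1 neighbours Psmb9 on chromosome 17 and had 1.86, 2.32 and 4.09 FPKM in males and 2.62, 2.95 and 5.68 FPKM in females. Of the exonic bases of Psmb9, 5.8% lie under Tap1 on the other strand. Of those of Psmb8, 14.7% lie under Gm20496, which had 3.36, 3.08 and 6.39 FPKM in males and no count in females, so that male values of Psmb8 are less certain.

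Markers of immune cells, which express immunosubunits highly, are given for the same libraries. The summed level of 18 leukocyte marker rows (17 genes, Itgam entered in 2 rows) was 14.1, 11.4 and 17.4 FPKM in normal, precancerous and tumour liver of males and 19.5, 14.6 and 20.3 FPKM in females. Of 8 tested, 3 rose in tumour against precancerous liver (Nkg7, Itgax and Cd3e) and none fell, where 13.8% of all genes rose and 12.1% fell. Cd3d was at 0 in male precancerous liver and 1 Itgam row was at 0 in female normal and precancerous liver; none was at 0 throughout. The 9 Kupffer cell markers summed to 216.5, 327.5 and 127.9 FPKM in males and to 347.8, 473.5 and 235.9 FPKM in females, and 8 of 9 fell in tumour against precancerous liver. Leukocyte sums were thus lowest, and Kupffer sums highest, in the precancerous library of each sex. The part of these cells in the immunosubunit values was not tested. Other cell types moved with the tumour as well. Of 7 stellate cell markers 4 rose (Col1a1, Col1a2, Col3a1 and Acta2) and 2 fell (Dcn and Lrat) in tumour against precancerous liver. They summed to 72.3, 82.3 and 76.4 FPKM in males and to 147.8, 153.6 and 118.3 FPKM in females. Dcn alone made most of each sum, at 63.1, 74.4 and 43.4 FPKM in males and 132.4, 140.5 and 71.1 FPKM in females. Of 6 cholangiocyte markers 3 were tested and 2 rose; they summed to 11.7, 9.00 and 121 FPKM in males and to 12.6, 14.7 and 138.7 FPKM in females, of which Spp1 alone made 115.4 and 129 FPKM in the tumours, while the defining markers Krt19 and Krt7 were at most 1.07 and 0.208 FPKM. Of 6 endothelial markers 1 rose and 2 fell. None of the 8 hepatocyte markers was called in tumour against precancerous liver. Against normal liver 1 of the 8 rose and 1 fell (all genes: 17.3% and 16.1%). Trf had a log2 fold change of 1.46 (adjusted p = 0.0078, edgeR), and Ttr of -0.89 (adjusted p = 0.0214). The part of these cells in the tumour values of Psmd10, Psmd14, Psmd8, Psma7 and Psmd9 was not tested.

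Among the activators, Psme1 and Psme2 encode the interferon-responsive PA28 ring, Psme3 a nuclear PA28 form and Psme4 the PA200 cap. None of the 4 was called between tissues. Psme1 was at 11.1, 12.2 and 12.5 FPKM in males and at 14.4, 12.97 and 14.6 FPKM in females. Psme2 was at 7.06, 5.98 and 6.66 FPKM in males and at 5.62, 4.06 and 4.41 FPKM in females, but 28.3% of its 50-base windows are shared with Psme2b or another copy. The row of Psme2b held 53.4, 51.0 and 51.9 FPKM in males and 46.4, 31.8 and 38.4 FPKM in females, with 69.3% of windows shared. Reads that fall within the shared windows of Psme2 and its copy cannot be told apart. Psme3 varied least, between 15.0 and 17.3 FPKM over all 6 libraries. Psme4 was at 23.9, 17.6 and 16.4 FPKM in males and at 11.5, 11.6 and 11.0 FPKM in females, with a log2 fold change of -0.12 in tumour against precancerous liver (SE 0.17, adjusted p = 0.651, edgeR). Psmf1, which encodes the inhibitor PI31, was at 2.16, 1.98 and 2.42 FPKM in males and at 2.88, 2.94 and 3.33 FPKM in females; the tumour was highest in each sex (0.20, SE 0.11, adjusted p = 0.226).

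Males of 9 months were then compared with females of 15 months, over the 3 tissues. Among the 48 genes, 16 were higher in the males (33.3%, beside 19.1% of all genes) and 4 lower (8.33%, beside 18.2%). With Psmc3ip left out, 15 of 47 were higher and 4 lower. All 3 male libraries lay above all 3 female ones in 17 of 48 genes (35.4%, beside 22.9%), and below them in 4 (8.33%, beside 11.3%). The alpha ring held 5 of the genes higher in males: Psma1, Psma3, Psma4, Psma5 and Psma6. Psmb7 differed most among the genes placed in the classes, with a log2 fold change of 0.87 (SE 0.11, adjusted p = 0.00738, edgeR). It was followed by Psmd6 (0.81, SE 0.11), Psma1 (0.79, SE 0.09) and Psme4 (0.65, SE 0.14), whose values are given above. Psmc5, an ATPase, was at 44.2, 35.5 and 35.2 FPKM in males and at 26.5, 24.8 and 26.9 FPKM in females (0.46, SE 0.10). Psmb1 had 0.49 (SE 0.09). Psma6 was at 61.9, 46.6 and 47.9 FPKM in males and at 39.7, 34.6 and 35.1 FPKM in females (0.42, SE 0.10). In all of these the sexes did not overlap.

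Lower in males were Psmd3, Psmb3, Psmb2 and Psmf1. Psmd3, a lid subunit, was at 10.7, 8.98 and 9.57 FPKM in males and at 15.7, 13.3 and 13.9 FPKM in females (a log2 change of -0.65, SE 0.09, adjusted p = 0.00858, edgeR). Psmb3 was at 16.5, 12.98 and 12.3 FPKM in males and at 21.7, 16.1 and 20.3 FPKM in females (-0.57, SE 0.12); male normal liver overlapped the females. Psmb2 was at 29.4, 24.5 and 24.0 FPKM in males and at 33.1, 31.5 and 33.2 FPKM in females (-0.42, SE 0.10). Psmf1 had -0.57 (SE 0.09). Subunits of the same ring thus had opposite signs, such as Psmb7 and Psmb3 in the beta ring.

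Psmc3ip, which is no proteasome gene, had the largest difference by name pattern, at 0.602, 1.57 and 1.74 FPKM in males and 0.130, 0.196 and 0.249 FPKM in females (2.62, SE 0.29, adjusted p = 0.0055, edgeR). Of its exonic bases 21.2% lie under Mlx on the other strand, at 10.6 to 14.2 FPKM. Of the 12 genes found opposite a member, 3 had counts in all 3 males and none in any female: Gm20496, AY074887 (opposite Psma4) and Gm26745. The other 9 had counts in at least 1 female library. Psmb7 overlaps Nek6 in 11.8% of its exonic bases. Nek6 too was higher in males, at 6.05, 6.51 and 8.07 FPKM, than in females, at 2.58, 3.38 and 4.59 FPKM. The part of Nek6 reads in the Psmb7 values was not tested. Of the 48 genes, 36 have no antisense exon. Sex, age, depth and these 3 antisense rows differ together between the groups and cannot be told apart. Without the male precancerous library 0 of the 48 were called, without the female one 1, without the female normal 7 and without the male normal 8.

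Genes that work with the proteasome were counted from lists. Of 8 further subunits and partners, none changed in tumour against precancerous liver, where 13.8% of all genes rose and 12.1% fell. In males 6 of the 8 were higher and 1 lower than in females (all genes: 19.1% and 18.2%). The largest of these were Shfm1 (1.35, adjusted p = 0.00437, edgeR), a small lid subunit, and Pomp (1.18, adjusted p = 0.00475), the core's maturation factor. Among 18 tested ubiquitin and shuttle genes, 2 that passed between tumour and precancerous liver are described. Ubqln2, a shuttle receptor, was at 6.93, 5.73 and 19.8 FPKM in males and at 6.93, 6.90 and 34.9 FPKM in females, and rose by 2.06 (SE 0.22, adjusted p = 0.00533). Both tumours were well above the rest. Zfand2a, a stress-induced partner of the 19S cap, rose by 1.23 (adjusted p = 0.0267).

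Of 10 genes known to regulate proteasome genes, 2 rose and 1 fell in tumour against precancerous liver (all genes: 13.8% and 12.1%). Nfe2l2 was at 17.2, 23.5 and 42.3 FPKM in males and at 25.4, 33.3 and 58.2 FPKM in females, and rose by 0.80 (SE 0.12, adjusted p = 0.0122, edgeR). Its level was ordered normal, precancerous, tumour in each sex. The transcription factor gene Zfp143 rose by 0.90 (adjusted p = 0.0335). Ddi2, the protease that activates NRF1, fell by 0.55 (adjusted p = 0.045). Nfe2l1, which encodes NRF1, lay between 7.27 and 9.28 FPKM, with a log2 fold change of -0.08 (SE 0.16, adjusted p = 0.759). None of 10 cytosolic chaperone genes and none of 8 genes of TRiC, the ring chaperonin of the cytosol, changed in this comparison. At an unadjusted p under 0.05 edgeR had 0 of these 18 in either direction (all genes: 21% higher and 19.3% lower). TRiC was higher in males in 6 of 8 genes (19.1% of all genes), with a median of 0.50.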

How the data were processed

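The deposited table gives a count and an FPKM value per Ensembl gene and library. The authors' counts are whole numbers, not normalized; the deposited FPKM values are those counts scaled to 1 length per gene and to the library's total. Per the submitters' processing notes, the tools were TopHat2 2.0.9 and Cuffdiff, with GRCm38 (mm10) as build; the kit was stranded per the labels' protocols, and whether counting used strand is not stated there. Members and gene lists were chosen with earlier results of these data known. The 11435 genes that reached 1 FPKM in 2 or more libraries were tested with edgeR 4.0.16 (R 4.3.3): TMM, quasi-likelihood, terms for tissue and sex, 6 libraries, Benjamini-Hochberg adjusted p under 0.05, two-sided. SEs are the log2 fold change divided by the root of F. Pairs of libraries are differences of log2(FPKM + 1), a scale that understates changes of low genes, with no test. DESeq2 1.42.0 and limma 3.58.1, other scalings and filters, and leaving out each library were alternatives. The fit was tested on simulated data. Overlaps between genes and 50-base windows shared with other genes were computed from GENCODE M21, and promoter windows came from RefSeq. Genes named in full were the immunosubunits, their constitutive partners, the activators and Psmf1; in each class the genes with the highest and lowest log2 fold change between tumour and precancerous liver and with the highest mean FPKM; and up to 12 genes by p called between the sexes. From each further list up to 4 genes with the largest change were named. Psmd11, Psmc6, Psmd12, Psma4, Shfm1, Pomp and Nfe2l1 were named after their values were seen. Some genes of the further lists are not reported here.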

Additional observations from a re-analysis of the deposited data

Results flagged for a closer look

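Psmb9 went opposite ways in the sexes between normal and precancerous liver: the difference of log2(FPKM + 1) was 0.25 in males (83 and 122 counts) and -0.27 in females (385 and 257 counts). With 1 library per group the difference between the sexes was not tested.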

How the results depend on the processing

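In tumour against precancerous liver the 5 genes called became 0 with no term for the other factor and between 0 and 5 when 1 library was left out. In tumour against normal liver 6 became 0 with no such term and between 1 and 3 with 1 library left out. Between males and females 20 became 5 with no such term and between 0 and 14. DESeq2, limma, upper quartile scaling and no filter on low values kept each count within 1.5 times; precancerous against normal liver had 0 calls under every alternative run. With a minimum of 5 FPKM in 2 libraries, the immunosubunits' median in tumour against precancerous liver (mean of the sexes) turned from 0.16 to -0.05, on 2 genes. Under the same filter that of inhibitor and assembly genes went to 0.30 in tumour against precancerous liver, to -0.13 in precancerous against normal liver and to 0.15 in tumour against normal liver, on 4 genes. Fewer genes enter these medians. The mean ratio of Psmb8 to Psmb5 went from 0.241 to 1.07 with counts and 0.589 with principal transcript lengths, that of Psmb9 to Psmb6 from 0.129 to 0.262 and 0.154, and that of Psmb10 to Psmb7 from 0.991 to 0.353 and 0.313, by construction of the length used. Depth limits low genes: Psmd10 had 71 counts in male precancerous liver and Psmb9 had 83 in male normal liver. No paired analysis was possible because the labels give no number that pairs mice; tissues were compared within a sex through the term for sex.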
